A study of Rattus norvegicus with 2 samples.

Results

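Circular RNAs (circRNAs) are rings of RNA, closed by a back-splice that joins the end of an exon to the start of an earlier or the same exon. Here they are described for genes that make, break down or answer to cyclic nucleotides, calcium and membrane lipid messengers, in rat spinal cord. Members were all circRNAs whose host gene name in the deposited table started with Adcy, Gucy, Pde and a digit, Prka, Prkc, Prkg, Camk, Plc, Dgk, Pik3, Pip4k, Pip5k or Inpp. This gave 186 circRNAs from 59 host genes, of 11599 circRNAs in the table. No member name was lost to the limit of 3 Mb on the stretch of chromosome that the circRNAs of a name may cover. For Pde4dip (myomegalin, a centrosome and Golgi protein) and Camkmt (a methyltransferase of calmodulin) the letters of the name are shared but the product is no enzyme of these families, and they are kept apart below. Prkaa2, a gene of the AMP-activated kinase, also came in through its prefix and is counted as a family of its own.

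The study placed live Walker256 rat mammary carcinoma cells in the marrow cavity of the tibia of Sprague-Dawley rats, as a model of bone cancer pain (BCP). Sham rats had the same operation with boiled cells, so both groups carried an injection and cell material. Spinal cord was taken 21 days after surgery from 3 animals per group. There was 1 library per group, RNA was treated with RNase R to remove linear molecules, and the sources used here do not say whether animals were pooled. Age and sex were not stated in the labels. Without replicates, the comparisons below set 1 library against the other and do not compare the conditions. Fewer cells of a type and less RNA per cell cannot be told apart in such tissue.

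Receptors coupled to G proteins steer adenylyl cyclases, which make cyclic AMP, and phospholipases C, which split a membrane phosphoinositide into inositol trisphosphate and diacylglycerol. Nitric oxide turns on soluble guanylyl cyclase, which makes cyclic GMP. Phosphodiesterases, diacylglycerol kinases and inositol phosphatases end these signals, while protein kinases A, G and C and the calmodulin-dependent kinases pass them on. PI 3-kinases and PIP kinases add phosphates to inositol lipids. In the spinal dorsal horn these routes are known to tune synaptic strength after injury, and the calcium-stimulated cyclase of Adcy1 has been tied to persistent pain in mice.

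The sham library held 113033 back-splice reads over the whole table and the BCP library 78836. All counts below are raw back-splice reads, in sham first and BCP second. Ratios are of counts scaled to these totals, with 95% conditional exact (Clopper-Pearson) intervals that cover counting error only. No molecular identifiers mark copies made by PCR, so the intervals may be too narrow. A circRNA or gene with at least 10 reads over both libraries was tested, and it was called higher or lower in BCP with a ratio of at least 2-fold, taken with a pseudocount of 0.5 reads, and an interval that excluded 1. The smallest count above 0 in the table was 2, so an entry of 0 does not show absence, and no fold is given against a 0. Among marker lists of other cell types, microglia and macrophage genes had 13 and 58 reads (4 of 12 genes listed), oligodendrocyte genes 20 and 51 (4 of 10), astrocyte genes 19 and 42 (2 of 10), vessel genes 39 and 34 (3 of 6), and ganglion neuron and Schwann cell genes 0 and 19 (2 of 7). Neuron genes, which check the labelled tissue, had 138 and 122 reads (7 of 10). Rbfox3, Snap25 and Syt1 were among the listed neuron genes, while Elavl4, Tubb3 and Celf4 were not listed. Of the astrocyte genes Slc1a2 and Slc7a11 were listed, and Gfap and Aqp4 were not. Of the microglia and macrophage genes Ptprc, Ikzf1, Dock8 and Plcg2 were listed, and Csf1r and Itgam were not. The part of these shifts in the results below was not tested.

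Messenger genes gave a small share of the circRNA reads in both libraries. Members held 1242 sham reads, or 1.10% of the library (exact binomial interval 1.04 to 1.16), and 802 BCP reads, or 1.02% (0.948 to 1.09). The summed ratio of BCP over sham was 0.926 (0.846 to 1.01). With median-of-ratios scaling it was 0.861 (0.787 to 0.942), and over the circRNAs that both libraries listed it was 1.03 (0.932 to 1.14). Its direction thus differed between these settings. Sham listed 148 of the members and BCP 112. Both libraries listed 74, sham alone 74 (39.8%, beside 36.4% of the whole table) and BCP alone 38 (20.4%, beside 22.4%). Thus 60.2% of members were listed in 1 library only (52.8 to 67.3), beside 58.8% over the whole table. Members had a median of 4 reads over both libraries (5 in the table), and their median genomic span was 10606 bp (9708 bp in the table).

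Of the 48 members that were tested, 3 were higher in BCP and 4 lower, while 41 fell on neither side of the rule. Over all 3502 tested circRNAs, 7.82% were higher and 7.34% lower. The members' shares were 6.25% and 8.33%, near this background. The median log2 ratio of the tested members was 0.08, and 0.02 over all tested circRNAs. The other 138 members had under 10 reads and held 366 and 204 reads in all.

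**Figure D1:**
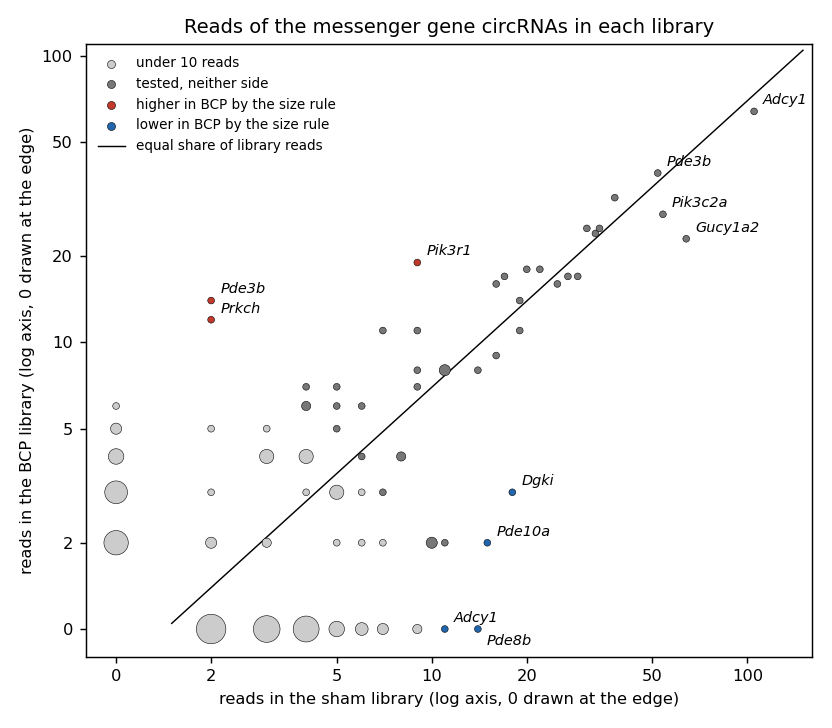
Raw back-splice reads of the 186 member circRNAs in the sham (x axis) and BCP (y axis) library, both on log axes with 0 drawn at the edge; a larger point stands for more circRNAs at the same pair of counts, colour gives the side of the size rule, and the line marks equal shares of both libraries. Most tested circRNAs lie along the line, and the 3 red and 4 blue points are those called higher and lower.

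Counts summed over all circRNAs of a gene gave 38 host genes with at least 10 reads, of which 2 were higher in BCP (Pik3r1 and Prkch) and 6 lower (Gucy1a2, Pde10a, Pde8b, Prkar2a, Plce1 and Pik3cb). Over all 2159 tested host genes, 8.75% were higher and 8.52% lower, and the members' shares were 5.26% and 15.8%. Of the lower genes, Pde8b, Prkar2a, Plce1 and Pik3cb had no circRNA listed in BCP. Since the smallest count above 0 was 2, each 0 in these sums may hide an unlisted read. Plce1 (12 and 0 reads) and Pik3cb (10 and 0) each sum 2 such circRNAs. Prkaa2, with 10 and 2 reads, met neither side, so these 2 calls may depend on how low counts were listed, which was not tested. Over the circRNAs that both libraries listed, only Pde10a was still called lower, while Gucy1a2 (79 and 28 reads) missed the 2-fold limit and the other 4 had no reads left. BCP was the shallower library. After 1 random thinning of sham to the BCP depth, Prkar2a, Pde8b and Plce1 were still called lower, while Pik3cb had 6 reads against 0 and was no longer tested.

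**Figure D2:**
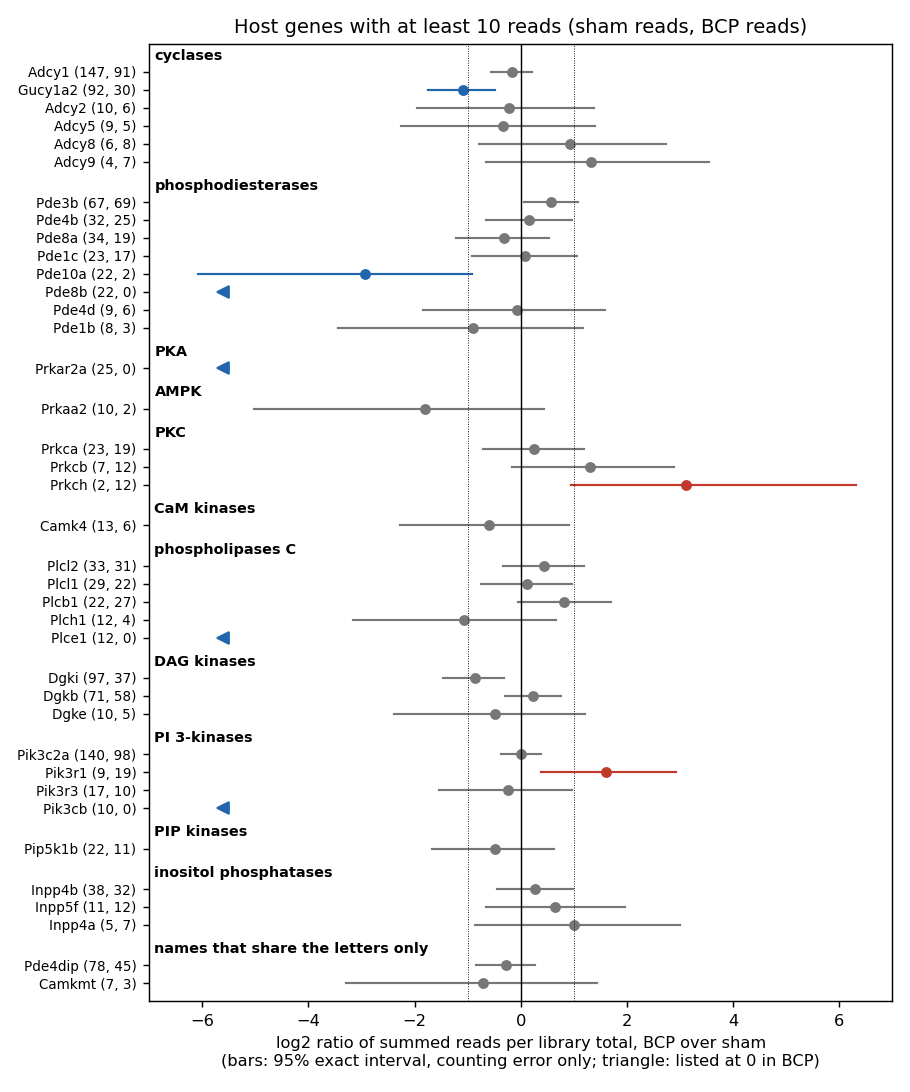
Log2 ratio (BCP over sham) of the summed reads of each host gene with at least 10 reads, grouped by family; bars are 95% exact intervals of counting error, triangles are genes listed at 0 in BCP with no ratio, dotted lines mark 2-fold, and sham and BCP reads stand beside each name. Pik3r1 and Prkch (red) lie to the right, and the 6 lower genes (blue) to the left.

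Cyclases make the messengers, and they held 268 and 147 reads from 25 circRNAs of 6 genes. Their summed ratio was 0.786 (0.639 to 0.965), and without Gucy1a2 it was 0.953 (0.748 to 1.21). Without Adcy1 it was 0.664 (0.475 to 0.918). Adcy1, the calcium- and calmodulin-stimulated adenylyl cyclase, had 147 and 91 reads and shared the first place among member genes with Pik3c2a (ratio 0.888, 0.676 to 1.16). All 4 circRNAs of Adcy1 shared their lower coordinate on chromosome 14, position 87328008. The longest of the abundant ones, 87328008 to 87357732, had 31 and 25 reads, and the most abundant, 87328008 to 87331877, had 105 and 64 and was the member with most reads. A short one of 150 bp, 87328008 to 87328157, had 11 reads in sham against 0 in BCP, and it was the 1 cyclase circRNA called lower. After thinning of sham to the BCP depth it had 8 and 0 reads and was no longer tested. The main circRNA took 71.4% of Adcy1 reads in sham (63.4 to 78.6) and 70.3% in BCP (59.8 to 79.5), and the difference was not tested.

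Gucy1a2 encodes the alpha-2 subunit of soluble guanylyl cyclase, the receptor of nitric oxide. Its 8 circRNAs had 92 and 30 reads, which made the gene 2.14-fold lower in BCP (ratio 0.468, 0.299 to 0.713). A 719 bp circRNA on chromosome 8, 508994 to 509712, carried most of them with 64 and 23 reads, 1.94-fold lower (1.19 to 3.28). That circRNA lay just outside the 2-fold limit, and with median-of-ratios or TMM scaling it was called lower. Another, 759958 to 776054, had 10 and 2 reads and met neither side. The remaining 6 had 18 and 5 reads in all, with 4 listed in sham alone and 1 in BCP alone. Among the other adenylyl cyclases, Adcy2 had 10 and 6 reads and Adcy5 had 9 and 5. Adcy8, which is also stimulated by calcium and calmodulin, had 6 and 8 reads from 5 circRNAs, none of which was listed in both libraries. Adcy9 had 4 and 7 reads. None of these 4 genes met the rule.

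Phosphodiesterases break down the cyclic nucleotides, and 10 genes with 30 circRNAs held 225 and 141 reads. Their summed ratio was 0.898 (0.723 to 1.11), and it turned to 1.13 (0.891 to 1.43) over those listed in both libraries. Without Pde3b it was 0.653 (0.487 to 0.869). The 9 tested circRNAs split into 1 higher, 2 lower and 6 on neither side. Pde3b, whose product degrades cyclic AMP and is inhibited by cyclic GMP, had the most reads of the family with 67 and 69 (ratio 1.48, 1.04 to 2.10), below the 2-fold limit. Its most abundant circRNA, chromosome 1, 184008119 to 184017761, had 52 and 39 reads. Another, 184041764 to 184061174, had 2 and 14 reads and was higher in BCP by 10.04-fold (2.31 to 91.0). Its 2 sham reads equal the smallest count listed above 0, and with a minimum of 20 reads it was no longer tested. A circRNA with the same start and an end 3 bp further on, at 184061177, had 4 reads in sham against 0 in BCP. Taken as 1 circRNA, both had 6 and 14 reads (3.35-fold, 1.21 to 10.6). All 4 circRNAs that start at 184041764 had 12 and 20 reads, and the 4 that start at 184008119 had 55 and 49. The main circRNA made up 77.6% of Pde3b reads in sham (65.8 to 86.9) and 56.5% in BCP (44.0 to 68.4). These intervals overlap only from 65.8 to 68.4, which does not compare the shares, and their difference was not tested.

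Pde10a and Pde8b were the lower phosphodiesterase genes. Pde10a, whose product degrades both cyclic nucleotides and is best known from the striatum, had 22 and 2 reads and was lower in BCP by 7.67-fold (1.89 to 67.3). Of its circRNAs on chromosome 1, 52414237 to 52444705 had 15 and 2 reads (5.23-fold lower, 1.22 to 47.1), and 52388783 to 52401374 had 7 reads in sham alone. The 2 BCP reads of Pde10a equal the smallest count listed above 0. With a minimum of 20 reads the circRNA with 15 and 2 was no longer tested, though the gene sum was still called lower. Pde8b, a cyclic AMP-specific enzyme of high affinity, had 22 reads in sham from 3 circRNAs and none listed in BCP. Most of them, 14 reads, came from chromosome 2, 24740104 to 24746356, which was called lower. After thinning it had 8 and 0 reads and was no longer tested, though the gene sum was still called lower. The related gene Pde8a had 34 and 19 reads (ratio 0.801, 0.432 to 1.45) and did not meet the rule. The cyclic AMP-specific Pde4b had 32 and 25 reads, all from circRNAs with 1 shared start (chromosome 5, 122019303). The calcium- and calmodulin-dependent Pde1c had 23 and 17, of which 17 and 17 came from 1 circRNA. Pde4d had 9 and 6 reads, and Pde1b had 8 and 3. The cyclic GMP-specific Pde5a and Pde9a had 4 reads each in sham against 0 in BCP, too few to be tested.

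Protein kinase A holds its catalytic subunits inactive through regulatory subunits that bind cyclic AMP. The 3 genes of this kinase had 29 and 6 reads and were lower in BCP by 3.37-fold (1.38 to 9.93), and nearly all sham reads came from Prkar2a, a regulatory subunit gene. Its 5 circRNAs had 9, 5, 4, 4 and 3 reads in sham and all were at 0 in BCP, so each stayed below the 10 reads of the rule while their sum was called lower. All lie between 117512101 and 117540075 on chromosome 8, and 3 of them, with 18 reads, end at 117540075. Without Prkar2a the family had 4 and 6 reads (ratio 2.15, 0.510 to 10.4), so its direction rests on that gene. The catalytic subunit gene Prkacb had 4 and 4 reads, and the regulatory subunit gene Prkar1b was listed in BCP alone with 2 reads. Protein kinase G was present through Prkg2 (2 and 2 reads). The AMP-activated kinase was present through its catalytic subunit gene Prkaa2 with 10 and 2 reads (ratio 0.287, 0.0305 to 1.35), which met neither side.

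Protein kinase C, apart from its atypical members, answers to diacylglycerol and, for its conventional members, to calcium. Its 8 genes held 45 and 53 reads, a summed ratio of 1.69 (1.11 to 2.57), which was 1.37 (0.869 to 2.15) without Prkch and 1.55 (0.970 to 2.47) without Prkcb. Without Prkca it was 2.22 (1.26 to 3.98), past the 2-fold limit. Prkch, a calcium-independent member, had a single circRNA on chromosome 6, 96487054 to 96541680, with 2 and 12 reads. It was higher in BCP by 8.60-fold (1.92 to 79.1). Its 2 sham reads equal the smallest count listed above 0, and with a minimum of 20 reads Prkch was no longer tested. The conventional Prkca had 23 and 19 reads, mainly from chromosome 10, 96264760 to 96266403 (19 and 14). The conventional Prkcb had 7 and 12 reads (ratio 2.46, 0.892 to 7.37). On chromosome 1, its circRNAs 192379875 to 192409606 (6 reads) and 192408634 to 192409606 (4 reads) were listed in BCP alone, and 192465806 to 192486099 (4 reads) in sham alone. Prkcq, known from T cells, was listed in BCP alone with 3 reads. Prkce had 2 reads in sham alone, the atypical Prkci had 5 and 2 reads, and the atypical Prkcz had 6 and 2.

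Calmodulin-dependent kinases were sparse. Camk4, a nuclear kinase of neurons, had 13 and 6 reads from 2 circRNAs that end at the same position on chromosome 18. Camk1d had 4 reads in BCP alone. The ratio of the pair summed was 1.10 (0.433 to 2.72), and its direction varied: it was 0.662 (0.206 to 1.87) over circRNAs listed in both libraries, which leaves Camk4 alone, and 2.46 (0.710 to 10.8) after thinning.

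Phospholipases C gave 116 and 93 reads from 23 circRNAs of 9 genes, with a summed ratio of 1.15 (0.865 to 1.52), and 0 of 6 tested circRNAs met the rule. The most reads came from Plcl2 (33 and 31) and Plcl1 (29 and 22), which encode phospholipase C-like proteins without catalytic activity. In Plcl2 all sham reads lay in 1875552 to 1880538 on chromosome 9, and BCP added 2 circRNAs with the same end and 7 reads. Plcb1, the isoform driven by Gq-coupled receptors, had 22 and 27 reads (ratio 1.76, 0.965 to 3.24), and 2 of its 5 circRNAs were listed in BCP alone. Plch1 had 12 and 4 reads and met neither side. Plce1, which is linked to Ras signalling, had 12 reads from 2 circRNAs in sham against 0 in BCP, and its sum was called lower. With a minimum of 20 reads Plce1 was no longer tested. Plcg1 had 5 and 3 reads. Plcd4 was listed in sham alone with 3 reads, and Plcb4 and Plcg2 in BCP alone with 3 each. Plcg2 is also 1 of the 4 listed genes of the microglia and macrophage list given above. Its 3 BCP reads are thus part of the 58 of that list.

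Diacylglycerol kinases end the diacylglycerol signal by making phosphatidic acid, and they had the most circRNAs, 39 from 5 genes. Their summed ratio was 0.822 (0.641 to 1.05), and 1.00 (0.754 to 1.33) over those listed in both libraries. Without Dgkb it was 0.604 (0.422 to 0.853), and without Dgki 1.12 (0.808 to 1.56). Dgki and Dgkb, both known from brain, held nearly all reads and lay on opposite sides of 1. Dgki had 97 and 37 reads from 18 circRNAs, the most of any member gene (ratio 0.547, 0.364 to 0.806), and stayed short of the 2-fold limit. Its reads were spread out, since the circRNA with most reads over both libraries, 64618977 to 64629477, held 14.4% of them in sham (8.12 to 23.0) and 21.6% in BCP (9.83 to 38.2). Of these 18, 8 were listed in sham alone, 9 in both and 1 in BCP alone. Over the 9 in both, Dgki had 71 and 34 reads (ratio 0.687, 0.442 to 1.05), and the interval held 1. The circRNA from 64451679 to 64474930 on chromosome 4 had 18 and 3 reads and was lower in BCP by 4.18-fold (1.22 to 22.2). It shares its end with 3 others, which had 7 and 3, 5 and 3, and 4 and 0 reads, and none of them was called. The 4 together, its own reads included, had 34 and 9 reads (ratio 0.380, 0.160 to 0.808). The circRNA from 64451679 to 64457678, with the same start, had 6 and 6 reads.

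Dgkb had 71 and 58 reads from 13 circRNAs (ratio 1.17, 0.813 to 1.68). Of these, 8 end at position 57852070 on chromosome 6 and held 62 and 46 reads, 87.3% of the gene in sham and 79.3% in BCP. The most abundant, 57837921 to 57852070, had 20 and 18 reads. Another, 57821344 to 57852070, had 9 reads in sham against 0 in BCP and stood just below the minimum of 10. Dgke had 10 and 5 reads from 5 circRNAs, none in both libraries. Dgkh had 3 and 6 reads, and Dgkd had 4 in sham alone.

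**Figure D3:**
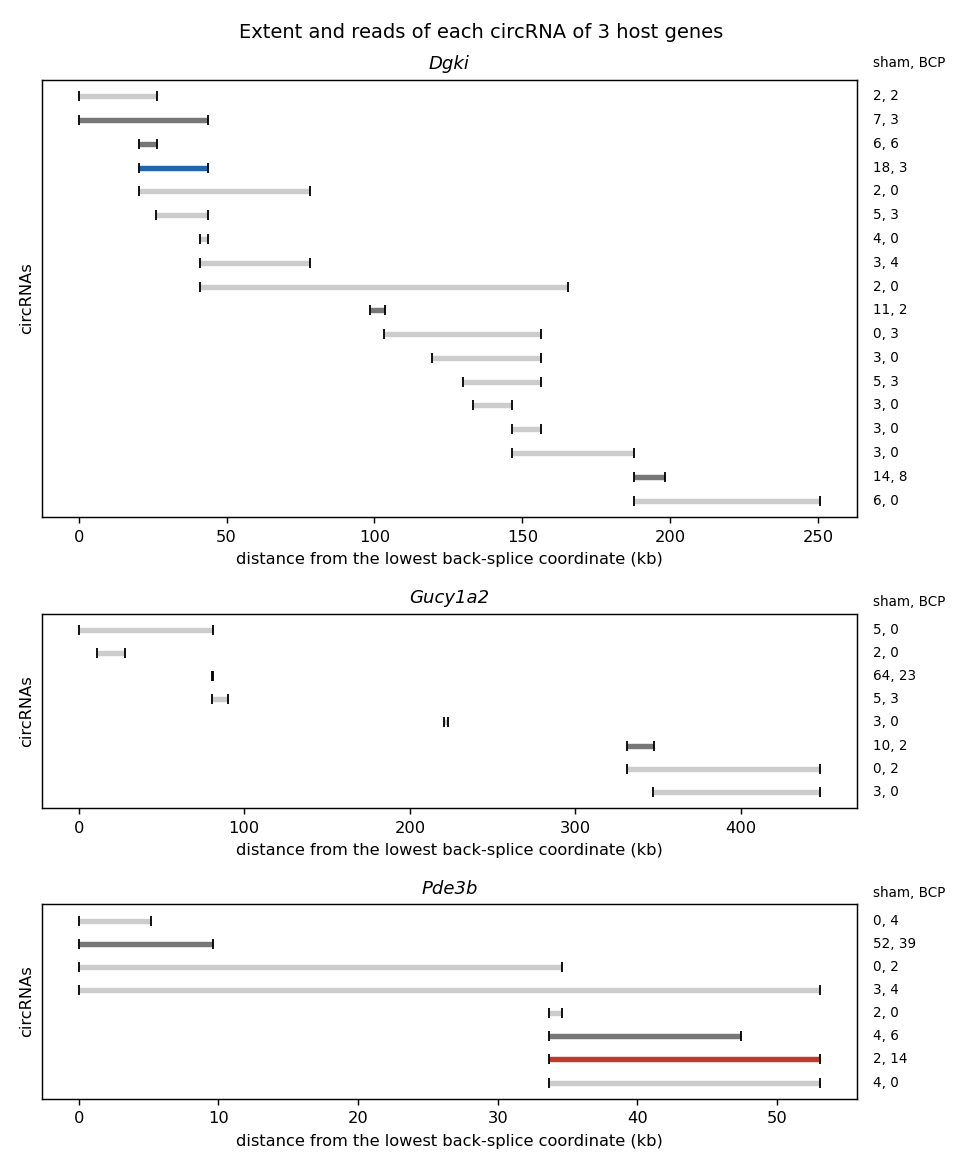
Extent of every circRNA of Dgki, Gucy1a2 and Pde3b, as distance in kb from the gene's lowest back-splice coordinate, with sham and BCP reads at the right; ticks are the back-splice ends, blue is lower and red higher in BCP by the size rule, dark grey was tested with no call and light grey had under 10 reads. Dgki spreads 97 and 37 reads over 18 circRNAs, whereas 1 short circRNA of Gucy1a2 holds 64 and 23 reads.

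PI 3-kinases had 178 and 130 reads from 19 circRNAs of 5 genes, and the summed ratio was 1.05 (0.829 to 1.32), which fell below 1 with median-of-ratios scaling (0.974, 0.771 to 1.23) and with TMM scaling (0.966). Pik3c2a, a class II catalytic gene with roles in membrane traffic, had 140 and 98 reads from 9 circRNAs (ratio 1.00, 0.767 to 1.31). Its main circRNAs on chromosome 1 were 185306404 to 185307538 with 54 and 28 reads and 185267562 to 185267832, of 271 bp, with 38 and 32. Together, 4 of its circRNAs ended at 185267832, with 67 and 52 reads. Pik3r1, which encodes the main regulatory subunits of class I kinases, had a single circRNA on chromosome 2, 31816052 to 31816763, of 712 bp, with 9 and 19 reads, and was higher in BCP by 3.03-fold (1.30 to 7.60). After thinning of the sham library to the BCP depth it had 8 and 19 reads and its interval no longer excluded 1. The regulatory gene Pik3r3 had 17 and 10 reads from 5 circRNAs, and the class I catalytic gene Pik3cb had 10 reads in sham from 2 circRNAs and none listed in BCP, a call lost after thinning and with a minimum of 20 reads. Pik3c2b had 2 and 3 reads.

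PIP kinases, which make the substrate of phospholipase C, were present through Pip5k1b (22 and 11 reads) and Pip5k1c (2 reads in BCP alone), with a summed ratio of 0.847 (0.392 to 1.76). Inositol polyphosphate phosphatases held 64 and 51 reads from 12 circRNAs of 5 genes (ratio 1.14, 0.775 to 1.68), and 0 of 4 tested circRNAs met the rule. Inpp4b, which removes a phosphate from a product of PI 3-kinase, had 38 and 32 reads. Its main circRNA on chromosome 19, 29642344 to 29645344, had 27 and 17. Inpp5f had 11 and 12 reads, Inpp4a 5 and 7, and Inpp5a and Inpp1 had 7 and 3 in sham alone. For the names that share the letters only, Pde4dip had 78 and 45 reads from 7 circRNAs (ratio 0.827, 0.560 to 1.21) and Camkmt 7 and 3.

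**Figure D4:**
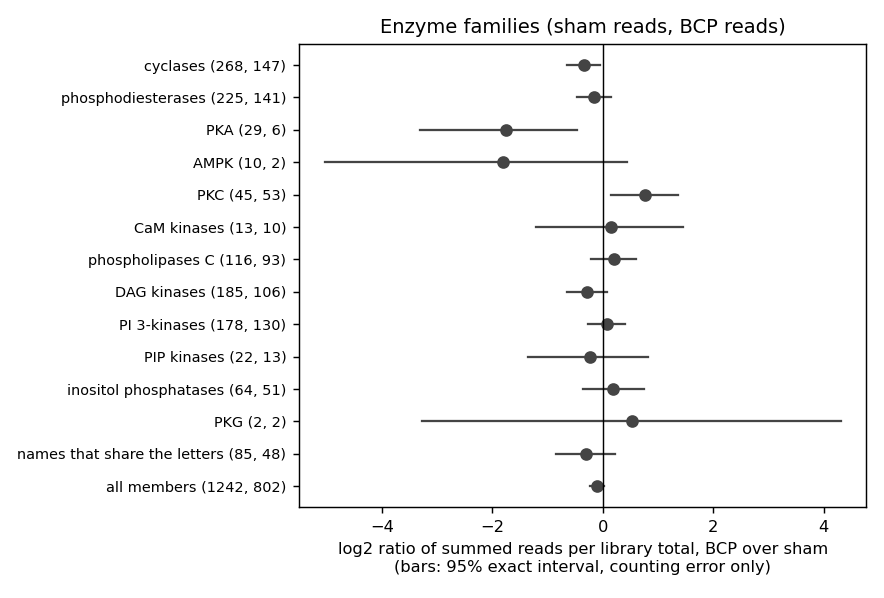
Log2 ratio (BCP over sham) of the reads summed over each enzyme family, with 95% exact intervals of counting error and the sham and BCP reads beside each name. The cyclases and PKA lie below 0 and PKC above it with intervals that exclude 0, and the others cross it.

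The 10 most abundant members held 37.6% of the members' sham reads and 36.7% of their BCP reads, and 0 of them met the rule. Besides those of Adcy1, Pde3b, Gucy1a2, Pik3c2a and Inpp4b already described, they were from Pde4dip (34 and 25 reads), Plcl2 (33 and 24) and Pde8a (29 and 17). Across 16 genes with at least 30 reads and 2 circRNAs, the most abundant circRNA held a median of 70.3% of the gene in sham and 71.2% in BCP. The lowest shares were those of Dgki given above. Back-splice ends were often reused: 120 of the 186 members (64.5%) shared a start or an end with another member, beside 59.9% of the circRNAs of the whole table that shared 1 with any other. A single circRNA was listed for 21 of the 59 genes (35.6%), beside 48.2% of the other host names.

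Of 110 further genes of these pathways that the prefixes do not take in, 57 had circRNAs, with 1701 and 1106 reads (summed ratio 0.932, 0.863 to 1.01). Their 51 tested circRNAs gave 4 higher, 3 lower and 44 on neither side, with a median log2 ratio of -0.01. Over all 3502 tested circRNAs, 7.82% were higher and 7.34% lower. Gnas, the gene of the G protein that stimulates adenylyl cyclase, had 12 and 21 reads and was higher in BCP by 2.51-fold (1.18 to 5.59). Anchoring proteins bind regulatory subunits of protein kinase A, and most tested circRNAs of their genes met neither side. By summed reads, Akap6 (120 and 79, ratio 0.944) and Akap7 (103 and 82, ratio 1.14) met neither side. Single circRNAs of these genes went both ways. A circRNA of Akap2 had 20 reads in BCP alone and another of Akap7 had 5 and 12 (3.44-fold, 1.13 to 12.5), while one of Akap6 had 17 reads in sham alone. The remaining lower ones, of the calcium pump gene Atp2a2 (20 reads) and the Rap activator gene Rapgef6 (11 reads), were at 0 in BCP. Of 37 genes of this list tested by their summed reads, 3 were lower and 2 higher, beside 8.52% and 8.75% of all tested host genes. Atp2a2 (33 and 0 reads), the G protein gene Gnao1 (10 and 0) and the calcineurin gene Ppp3cb (14 and 2) were the lower ones, and Akap2 (7 and 20) and Gnas were the higher ones. The most abundant host of this list, the myotubularin-related lipid phosphatase gene Mtmr7, had 370 and 221 reads (ratio 0.856) and did not meet the rule.

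Back-splice sequences were not read, since no genome of build rn6 was used. Promoters of 46 of the 59 genes were found in RefSeq (GRCr8), as 300 bases from 250 before the start of the gene. The cyclic AMP response element, TGACGTCA, the binding site of the factor CREB that protein kinase A activates, was in 0 of the 46, beside 1.91% of all 27457 promoters. Its half-site TGACG or, on the other strand, CGTCA was in 9 of the 46 (19.6%), beside 22.0% of all. These matches are descriptions of the letters in this window. The 120 bases before the start are shown for the 4 genes called higher or lower by their summed reads that had an entry, with a half-site in capitals. Pde10a is at chr1:54765669-54765788 on the minus strand, Gucy1a2 at chr8:8785092-8785211 on the plus strand, Pde8b at chr2:28116052-28116171 on the minus strand and Pik3r1 at chr2:34697661-34697780 on the minus strand, in GRCr8.
Pde10a: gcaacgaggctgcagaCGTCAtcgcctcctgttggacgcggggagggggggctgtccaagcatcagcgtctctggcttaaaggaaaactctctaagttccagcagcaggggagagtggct
Gucy1a2: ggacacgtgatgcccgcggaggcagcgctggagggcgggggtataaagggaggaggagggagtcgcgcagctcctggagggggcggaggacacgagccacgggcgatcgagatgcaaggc
Pde8b: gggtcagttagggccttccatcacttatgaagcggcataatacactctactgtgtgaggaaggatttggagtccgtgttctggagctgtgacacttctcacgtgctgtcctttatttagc
Pik3r1: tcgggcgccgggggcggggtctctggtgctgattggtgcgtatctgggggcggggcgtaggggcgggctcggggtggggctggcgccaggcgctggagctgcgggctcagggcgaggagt
Of these 4 stretches, that of Pde10a holds a half-site and the other 3 hold none.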

How the data were processed

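The authors deposited 1 table of circRNAs with a raw back-splice count and a scaled value per library. Its columns headed TPM hold CPM values of the column total, as deposited, to within 0.001, with 0 written as 0.001. They were not used further. Per the submitters' processing notes, the tools were CASAVA 1.8 and BWA, with build rn6. For the circRNA caller, its read minimum, its annotation and the BWA version, values were not given in the sources used here. Total RNA was depleted of ribosomal RNA and treated with 16 units of RNase R for 15 min, per the labels' protocols. Where the source label names the injected cells, the tissue label (spinal cord) was taken instead. The table gives no strand, so overlapping genes cannot be told apart, and exons and introns were not used. A back-splice read covers 1 junction, so counts were not scaled by length.

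Counts were scaled to library totals (Python 3.11.15, scipy 1.17.1). Family names of small RNAs and 65 names whose rows spanned over 3 Mb were dropped. All 59 member names matched the RefSeq table. Calls were computed over the whole table and tested on simulated data. Alternatives were scaling by DESeq2 1.42.0 (median of ratios) or by edgeR 4.0.16 (TMM), other read minimums and folds, a pseudocount of 1 read (chosen after seeing the data), 1 random thinning of the sham library, and subsets of the circRNAs. The members and lists were chosen with earlier results of these data known. Named were all members and host genes past the rule, the 10 most abundant circRNAs and genes, the 5 genes with most circRNAs, the leading gene of each family, and related genes past the rule. Mtmr7 was chosen after its values were seen. The remaining genes were named to account for the members, and some genes that the lists count are not reported here.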

Additional observations from a re-analysis of the deposited data

How the results depend on the processing

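No paired analysis was possible because each group has 1 library and the labels give no replicate numbers. Members called higher and lower (3 and 4) became 7 and 9 with a minimum of 5 reads and 1 and 1 with 20 reads. The lower ones became 2 after thinning of sham and 2 from circRNAs with reads in both libraries. Host genes called higher (2) became 1 with a minimum of 20 reads and 1 with a 3-fold limit, and those called lower (6) became 1 from circRNAs with reads in both libraries. With those circRNAs alone the summed ratio became 1.03 for all members and 1.13 for phosphodiesterases, and that of protein kinase A turned from 0.297 to 1.43, since Prkacb then gave all its reads. With median-of-ratios and TMM scaling, which moved every log2 ratio by -0.10 and -0.12, the counts of calls moved by at most 1. The interval of the diacylglycerol kinases excluded 1 with median-of-ratios scaling (0.764, 0.596 to 0.975), with TMM (0.757, 0.591 to 0.967) and without their most abundant circRNA (0.765, 0.584 to 0.996), and that of the phospholipases C did after thinning (1.41, 1.02 to 1.97). The interval of the cyclases reached 1 from circRNAs with reads in both libraries (0.848, 0.679 to 1.05), that of protein kinase C did so too (1.39, 0.835 to 2.32), and that of protein kinase A after thinning (0.394, 0.125 to 1.07) and without its most abundant circRNA (0.430, 0.141 to 1.11). Leaving out the most abundant circRNA could not be run for the AMP-activated kinase and protein kinase G, with 1 circRNA each, and protein kinase G had no ratio after thinning. Counts under 10 reads limit most members, 138 of 186.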
